A study of Macaca fascicularis with 44 samples.

Results

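Extravillous trophoblast (EVT) cluster 19 is a group of 84 cells from cynomolgus monkey (Macaca fascicularis) embryos grown in culture from the blastocyst. Its members are the cells that the authors' annotation calls EVT and places in cluster 19 of a clustering at resolution 2. They make up 84 of 566 EVT cells (14.8%) and 84 of 3682 cells in all. The study profiled wild-type embryos in 44 libraries of single-cell total RNA, of which 42 have a title and a time label that give the same embryonic day. By the annotation they hold 2 embryos at E16 and 1 embryo each at E18, E20, E21, E22, E23, E24 and E25. Embryonic day is counted from the injection of sperm into the oocyte. All embryos were wild type, were cultured in vitro and received no further treatment that the labels name. At dissection the extraembryonic tissue was taken away and the inner embryonic bodies were dissociated, so the trophoblast cells measured are those that stayed with these bodies.

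Each of the 84 members came from the E20 embryo, which the annotation lists as 1 embryo and which was measured in 6 libraries (numbered 34 to 39) with 518 cells. The groups used here are therefore cluster 19, the other EVT cells of E20 (80 cells) and the cytotrophoblast (CTB) cells of E20 (165 cells), with the EVT and CTB cells of the other embryos beside them. Libraries of E20 are repeated samples of 1 embryo, so the spread between them says nothing of other embryos at that day.

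Trophoblast is the outer lineage of the conceptus. Cytotrophoblast is its dividing epithelial stem compartment, and in human placenta CTB cells at the tips of anchoring villi form columns whose cells turn into EVT. Cells at the base of a column still divide, whereas those further out leave the cell cycle, exchange epithelial integrins for others and release proteases as they invade the uterine wall. The 4 genes that mark the cluster have roles outside this setting: CIDEC enlarges lipid droplets, CTSE (cathepsin E) is an intracellular aspartic protease, DLX4 is a homeobox transcription factor and CD53 is a tetraspanin known from leukocytes.

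The cluster was found in every library of E20 and in no other embryo. Libraries 34 to 39 held 14, 14, 18, 16, 13 and 9 member cells, which is 28.9% (library 38) to 66.7% (library 34) of the EVT cells of a library. Over the embryo the share was 51.2% of 164 EVT cells (exact 95% interval 43.3 to 59.1, for counting error alone). None of the 146 EVT cells of E23 was a member, which allows a share of up to 2.05%, and likewise none of 76 in E24 (up to 3.95%), 64 in E18 (up to 4.69%) and 48 in E25 (up to 6.25%). E16, E21 and E22 gave 5, 18 and 9 EVT cells, too few to read. Other E20 cells also stood in clusters of their own: CTB cluster 12 had 137 of its 138 cells from E20, and Extraembryonic Mesoderm cluster 22 had 71 of 74. Day, embryo and library code all change together here and cannot be told apart. At the authors' lower resolution of 0.8 all members lay in 1 cluster of 217 cells, whose other 133 cells were EVT cluster 13.

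Members were deeply sequenced. Their median was 336667 counts and 5932 genes per cell, against 46230 counts and 2212 genes in the other EVT cells and 239159 counts and 5470 genes in CTB cells. Thinned to 30000 counts, a member showed a median of 3915 genes, against 3138 in the other EVT cells (36 of 80 left out as shallower) and 3887 in CTB cells (11 of 165 left out). The other EVT cells are a mixture, namely 42 cells of cluster 7, 19 of cluster 23, 15 of cluster 13 and 4 of cluster 18. Cluster 23 supplied 68.8% of their counts and cluster 13 supplied 15.3%, so a summed level of the other EVT cells is largely that of cluster 23. Values of clusters 13 and 23 are given beside it for some genes only. Levels are in CPM, the counts of a gene scaled to the total counts of a group, and a difference is log2 of the ratio of CPM + 5. Because the authors drew the cluster from the same expression values, differences between it and other cells are described without a test.

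The label CIDEC high described the cluster in part. CIDEC had 27.95, 44.7 and 117 CPM (lowest, median and highest library) in cluster 19, 0, 40.3 and 76.3 CPM in the other EVT cells and 0.538, 1.58 and 7.40 CPM in CTB cells. All 6 cluster 19 values lay above all 6 CTB values, whereas they overlapped those of the other EVT cells, and the summed difference was 3.11 over CTB but 0.46 over the other EVT cells. Summed over the embryo CIDEC had 60.96 CPM in cluster 19, 111 CPM in the 15 cells of EVT cluster 13 and 37.7 CPM in cluster 23, so cluster 19 was not the highest EVT cluster of E20. In the EVT clusters of the other embryos CIDEC ran from 0 to 13.9 CPM. A CIDEC count was present in 46 of 84 members (54.8%, 95% interval 43.5 to 65.7). The share was 17.6% in CTB cells and 12.3% in cells of the annotated class EXMC (marked by mesenchyme genes), which are given for comparison. The level of free RNA was not measured. At 30000 counts per cell the shares of members, CTB and EXMC cells were 38.2%, 3.14% and 1.71%.

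CTSE and DLX4 set the cluster apart from CTB cells and from the other EVT cells as a whole, although CTSE was level with EVT cluster 13 of E20. CTSE had 204, 266 and 401 CPM in cluster 19, 0.957, 33.3 and 127 CPM in the other EVT cells and 0.687, 4.49 and 20.4 CPM in CTB cells, with no overlap between cluster 19 and either group (2.38 and 4.53 on the log2 scale). DLX4 had 26.7, 67.5 and 98.3 CPM in cluster 19, 0.456, 2.08 and 11.4 CPM in the other EVT cells and 1.66, 9.22 and 22.9 CPM in CTB cells, again without overlap (2.83 and 2.15). CD53 had 17.8, 60.9 and 100 CPM in cluster 19, 0.422, 8.72 and 51.5 CPM in the other EVT cells and 0, 0.124 and 2.41 CPM in CTB cells, so that it was apart from CTB cells (3.65) and overlapped the other EVT cells (1.89). CTSE had 283 CPM in cluster 19 when summed and was also high in cluster 13, with 272 CPM in E20, 233 CPM in E24 and 203 CPM in E18. DLX4 reached 30.5 CPM in cluster 13 of E20 and 23.01 CPM in cluster 13 of E24, and CD53 reached 32.7 CPM in cluster 13 of E23, the highest values of those genes in EVT clusters other than 19. Of the 84 members, 14 held a count of all 4 markers, 23 of 3, 28 of 2, 18 of 1 and 1 of none.

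**Figure D1:**
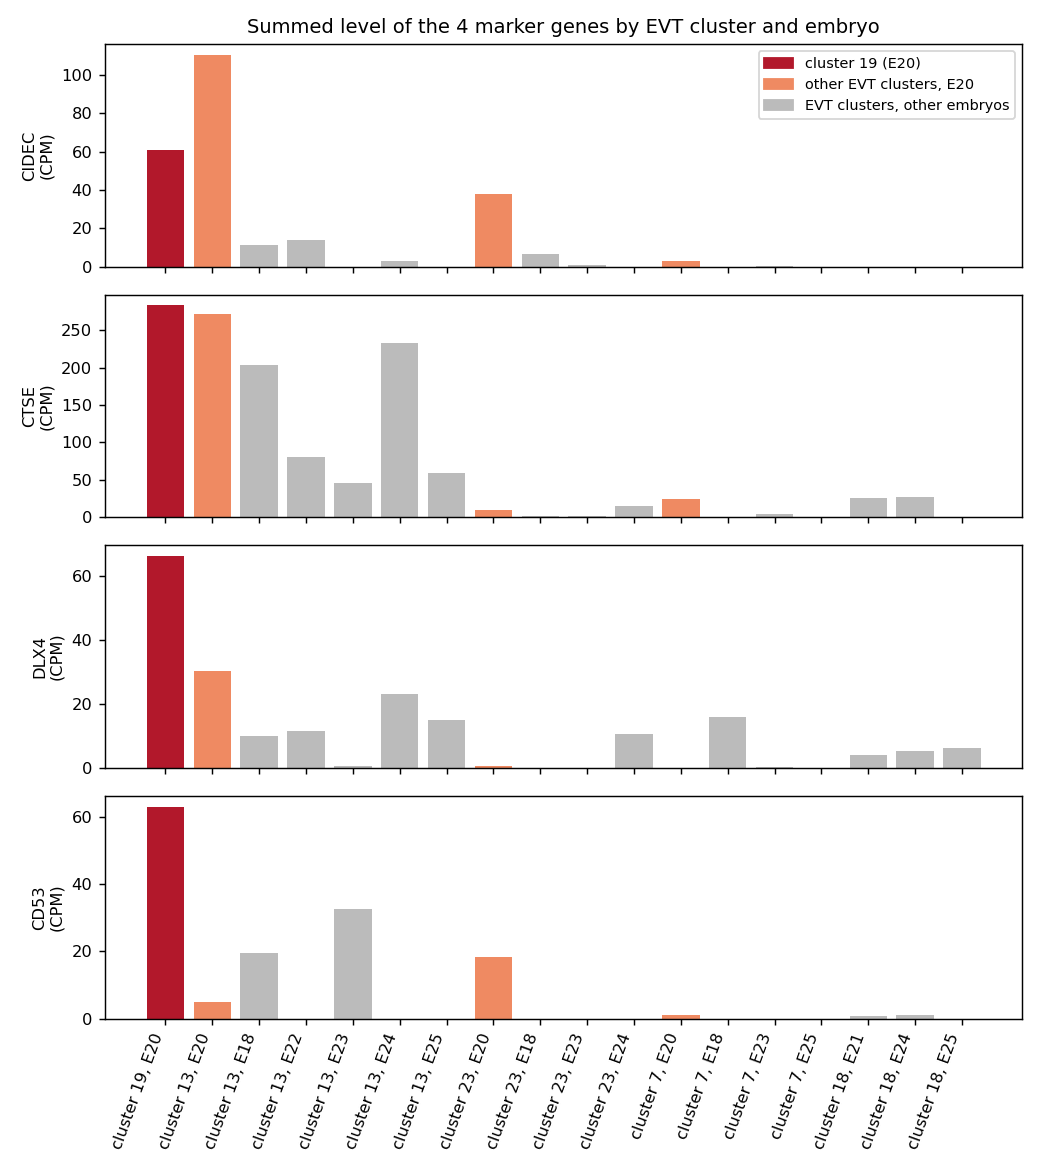
Summed level (CPM, linear axis) of CIDEC, CTSE, DLX4 and CD53 in each EVT cluster of each embryo with at least 5 cells, cluster 19 at the left, other E20 clusters in orange and those of other embryos in grey. CIDEC is at least 37.7 CPM in clusters 19, 13 and 23 of E20 and nowhere else, CTSE is also high in cluster 13 of several embryos, and DLX4 and CD53 are highest in cluster 19.

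Against the other EVT cells, cluster 19 combined the genes of dividing cells with low levels of the genes of invasive EVT. Of 6224 genes with at least 20 CPM in either group, 62 (0.996%) were at least 4-fold higher in cluster 19 and 195 (3.13%) at least 4-fold lower. With TMM scaling the counts were 36 higher and 243 lower. The higher count was 147 without library 39 and 95 without library 38. Library 39 held 9 members and 12 of the other EVT cells. One of those 12, a cell of cluster 23, carried 2831708 of the 15015754 counts of the other EVT cells. The median log2 ratio of the 6224 genes was 0.31 (with TMM 0.074), and single ratios are to be read against it. At least 2-fold higher were 793 genes (12.7%) and at least 2-fold lower 537 (8.63%). The 6 library values did not overlap for 569 higher genes (9.14%) and 184 lower genes (2.96%).

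Proliferation genes stood on the high side. Of 12 listed genes, all measured, 10 were at least 2-fold and 4 at least 4-fold higher in cluster 19 and none was 2-fold lower, with a median of 1.64. TOP2A, the topoisomerase that untangles chromosomes before mitosis, had 145, 245 and 374 CPM in cluster 19 and 1.49, 8.95 and 83.3 CPM in the other EVT cells (2.61). CDK1, the kinase that drives entry into mitosis, had 187, 278 and 410.0 CPM in cluster 19 and 16.8, 37.1 and 100.3 CPM in the other EVT cells (2.39). Every library of cluster 19 was above every library of the other EVT cells for both genes. Summed TOP2A was 263 CPM in cluster 19, and 171, 90.1 and 14.9 CPM in clusters 7, 13 and 23 of E20. In other embryos TOP2A reached 260 CPM in cluster 7 of E23 and 230 CPM in cluster 13 of E25. CCNB1, the cyclin partner of CDK1, averaged 1258 ± 180.4 CPM in cluster 19 and 281 ± 227 CPM in the other EVT cells (SD, 6 libraries of 1 embryo, 2.17), but cluster 13 of E20 was level with cluster 19 at 1289 CPM, against 52.7 CPM in cluster 23. KNL1 and BUB1B, which act at the kinetochore and its checkpoint, were among the 15 genes of largest ratio, at 78.3 and 75.9 CPM in cluster 19 and 8.06 and 8.26 CPM in the other EVT cells. For BUB1B a mean over cells of CPM per cell gave the opposite sign. A count of MKI67, the usual mark of dividing cells and chosen after its values were seen, was found in 75.5% of members at 30000 counts per cell, against 31.7% in cluster 13, 18.1% in cluster 23, 71.2% in CTB and 30.6% in EXMC cells (unthinned 90.5%, 46.7%, 57.9%, 75.8% and 49.1%). Cluster 7 gave 37.6% from the 8 of its 42 cells that were deep enough (unthinned 23.8%). Summed MKI67 was 145 CPM in cluster 19 and 175 CPM in cluster 7 of E23.

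The rest of the 15 genes of largest ratio were of mixed function. IL6, a cytokine, had 96.3, 167 and 324 CPM in cluster 19 and 0.957, 2.50 and 56.1 CPM in the other EVT cells (2.72), and its CTB level was 93.7 CPM. MYL3, a myosin light chain, had 159, 229 and 407 CPM in cluster 19 and 2.23, 10.9 and 76.9 CPM in the other EVT cells (2.51). Unlike CTSE or RHEX, MYL3 was low in cluster 13 of E20, at 11.8 CPM. OSR2, a zinc finger transcription factor, had 52.7 CPM in cluster 19 and 4.73 CPM in the other EVT cells (2.57), and RHEX, known from red cell growth in human, had 239 CPM in cluster 19 and 37.2 CPM in the other EVT cells (2.53). Of these 4 genes the RHEX libraries alone overlapped. DLX4 and DLX3 (homeobox factors), DEFB1 (an epithelial defensin), THEM4, SRD5A3, ABHD10 and WDR92 completed the list beside KISS1, with ratios of 2.50 to 2.83 and no overlap. DEFB1 had 67.02 CPM in cluster 19 and averaged 754 CPM in EVT cells of other embryos. KISS1 had the largest ratio (3.06), yet 78.5% of its counts came from 1 member of library 39, the libraries ran from 0.480 to 455 CPM, and a KISS1 count was present in 57.1% of members and 61.4% of EXMC cells (13.2% and 35.5% at 30000 counts).

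Genes of invasive EVT were far lower in cluster 19 than in the other EVT cells. Of the EVT marker list 14 of 21 genes were measured, 12 were at least 2-fold lower and 8 at least 4-fold lower, and none was 2-fold higher (median -2.12). Of 12 measured matrix proteases and their inhibitors, 11 were at least 4-fold lower (median -2.68). Against cluster 13 of E20 alone the list did not stand low: of 8 measured, 3 were at least 2-fold higher and 3 at least 2-fold lower in cluster 19 (median -0.10). Among them TIMP1, an inhibitor chosen after its values were seen, was level with the other EVT cells at 167 CPM in cluster 19 and 168 CPM in the other EVT cells, although 1 member held 66.2% of its counts. MMP2, a gelatinase, had 51.4, 116 and 515 CPM in cluster 19 and 3570.3, 4741 and 5485 CPM in the other EVT cells (-4.23). AOC1, which degrades histamine at the maternal border of the placenta, had 24.9, 52.9 and 432 CPM in cluster 19 and 780.2, 2058 and 7311 CPM in the other EVT cells (-4.42). NOTUM, an enzyme that inactivates Wnt proteins and was also chosen after its values were seen, had 90.1, 556 and 784 CPM in cluster 19 and 1698, 2347 and 4365 CPM in the other EVT cells (-2.39). None of these 3 genes overlapped between the groups. One member held 41.7% of the MMP2 and another 53.4% of the AOC1 counts of cluster 19, whose levels without that cell were 143 and 62.7 CPM. In E20 MMP2 and AOC1 had 615 and 180 CPM in cluster 13, and 6234 and 3887 CPM in cluster 23.

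MMP12, an elastase, showed the lowest ratio of genes with at least 50 CPM in either group (-5.50), with 38.5, 154 and 438 CPM in cluster 19 and 2855, 9870.1 and 49056 CPM in the other EVT cells. In cluster 19 one cell of library 38 carried 35.01% of the MMP12 counts, and at 30000 counts per cell MMP12 was found in 53.3% of members, against 53.4% of CTB and 60.7% of EXMC cells (unthinned 91.7%, 87.9% and 92.98%), so the share of members with a count was no higher than in those classes. Its summed level was 224 CPM in cluster 19 (149 CPM without that cell), against 83.3 CPM in CTB and 106 CPM in EXMC cells. Clusters 13 and 23 of E20 had 1082 and 14538 CPM of MMP12. FST (follistatin, which binds activin), ADAMTS20 and MMP15 (metalloproteases), SLC22A4 (a solute carrier), FCGR2A (an IgG receptor), PLA2G7 (which degrades platelet activating factor), LEPR (the leptin receptor), PROCR (the protein C receptor) and GDF15 (a stress-induced growth factor) followed, with ratios of -5.43 for FST to -4.45 for GDF15. Cluster 23 held these genes: FST had 1869 CPM there and 34.4 CPM in cluster 13, PROCR 3019.8 and 44.8 CPM, and GDF15 379.9 and 2.18 CPM. SERPINE2, an inhibitor of serine proteases, had 1380.2 CPM in cluster 19 and 24164 CPM in the other EVT cells (-4.13). Without the 1 member of library 39 that held 66.3% of its counts, the cluster 19 level of SERPINE2 was 491 CPM. Set against cluster 13 of E20 alone, SERPINE2 was level (1380.2 CPM in cluster 19 and 1334 CPM in cluster 13), whereas NOTUM was lower (533 and 2657 CPM).

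**Figure D2:**
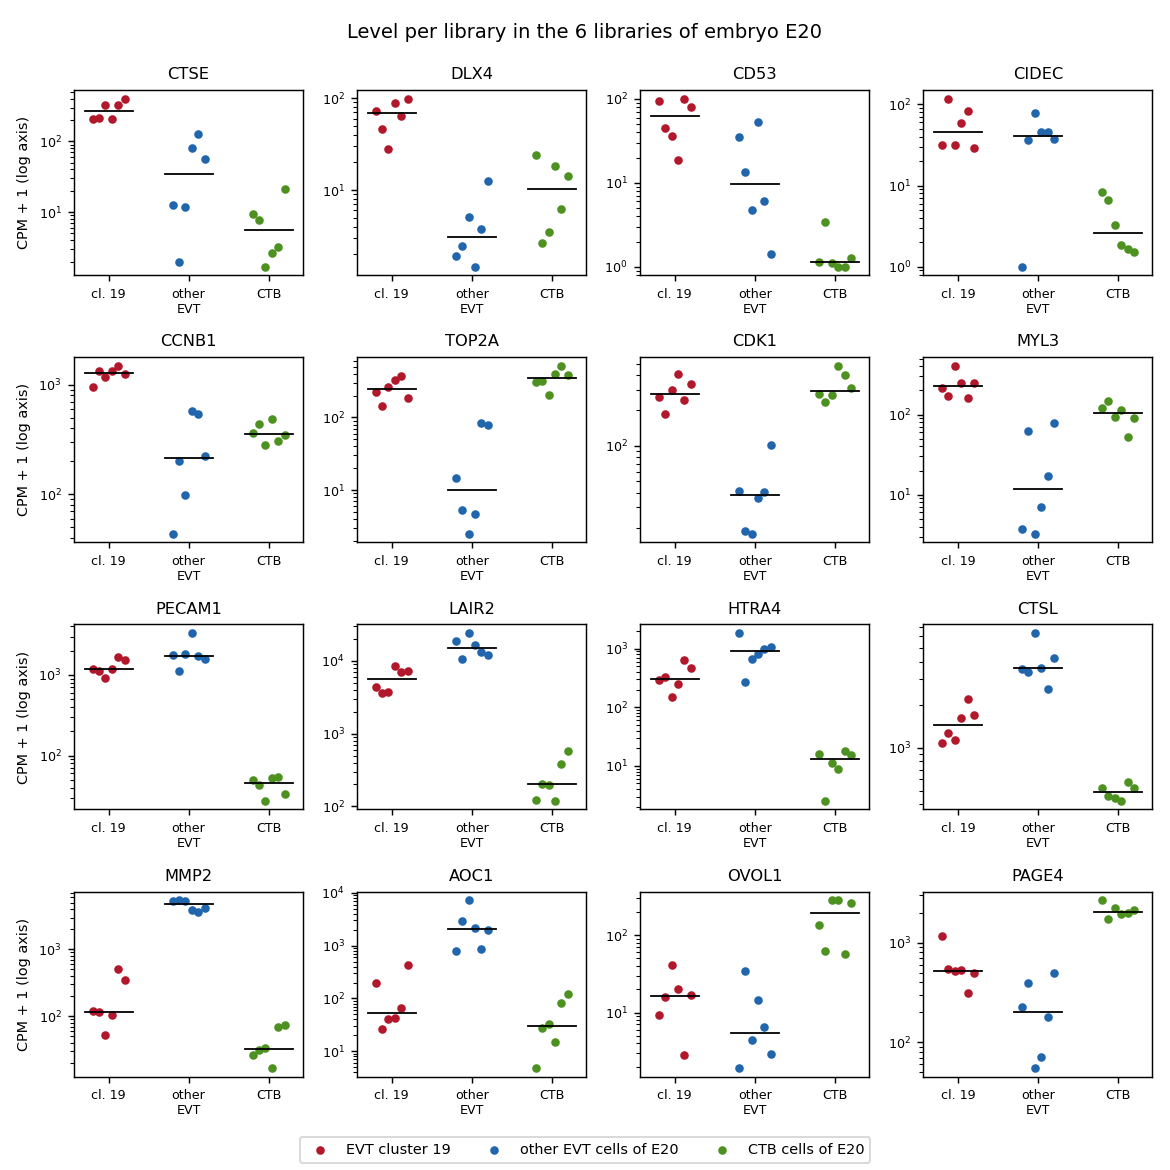
Level of 16 genes (CPM + 1, log axis) in each of the 6 libraries of E20, with cluster 19 in red at the left, other EVT cells in blue and CTB cells in green; points run in library order and bars are medians. Cluster 19 is level with CTB for CDK1, apart from both groups for CTSE, DLX4 and CCNB1, between both groups for LAIR2 and CTSL, and below CTB for OVOL1 and PAGE4.

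Against CTB cells of E20 cluster 19 was marked by EVT genes. Of 6248 genes measured, 121 (1.94%) were at least 4-fold higher and 40 (0.64%) at least 4-fold lower, and the median ratio of all was -0.13. At least 2-fold higher were 431 genes (6.9%) and at least 2-fold lower 309 (4.95%). The library values did not overlap for 371 higher genes (5.94%) and 339 lower genes (5.43%). Of the EVT list 13 genes were measured, 12 were at least 2-fold and 8 at least 4-fold higher in cluster 19, none was 2-fold lower, and the median was 2.37. PECAM1, an adhesion molecule of endothelium that invasive EVT also carries, had 915, 1184 and 1682 CPM in cluster 19 and 26.2, 45.2 and 52.5 CPM in CTB cells (4.83). LAIR2, a soluble collagen receptor known from human EVT, had 3591, 5709 and 8582 CPM in cluster 19 and 117, 199 and 582 CPM in CTB cells (4.39). HTRA4, a secreted serine protease of human EVT, had 148, 303 and 633 CPM in cluster 19 and 1.51, 12.2 and 16.6 CPM in CTB cells (4.57). The libraries of both groups did not overlap for any of these genes.

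CALCB, a neuropeptide of the calcitonin family, had the largest ratio over CTB (5.71), but it varied widely among libraries, with 26.1, 390.1 and 1568 CPM in cluster 19 against 0.538, 4.63 and 16.4 CPM in CTB cells, and 1 member held 33.3% of its counts. LAMA4, a laminin chain, was steadier, with 201, 262 and 371 CPM in cluster 19 and 0.754, 1.07 and 2.86 CPM in CTB cells (5.48). HSD17B2, which turns estradiol into estrone, had 804, 978 and 1219 CPM in cluster 19 and 15.2, 30.5 and 46.9 CPM in CTB cells (4.98), and PADI1, a citrullinating enzyme, had a ratio of 4.60. The libraries did not overlap for CALCB, LAMA4, HSD17B2 or PADI1. Chosen after their values were seen, the integrins ITGA1 (196 CPM in cluster 19, 13.4 CPM in CTB) and ITGA5 (245 and 12.9 CPM), which columns of human placenta gain, were likewise higher, as were PLAC8 (886 and 66.2 CPM) and FLT1, a receptor of VEGF (987 and 63.5 CPM). All 4 stayed below the other EVT cells, which had 435, 416, 2858 and 1361 CPM.

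CTB genes were lower in cluster 19, where most were still present and ELF5 was at 0. Of 10 measured CTB markers 7 were at least 2-fold lower, none was 2-fold higher, and the median was -1.35. OVOL1, a transcription factor of trophoblast differentiation, had 1.80, 15.5 and 39.9 CPM in cluster 19 and 55.2, 195 and 283 CPM in CTB cells (-3.31). SPDEF, an epithelial ETS factor, had 1.13, 9.02 and 28.8 CPM in cluster 19 and 66.9, 128 and 145 CPM in CTB cells (-2.98). CLDN1 (a tight junction protein), VAV3 (a guanine nucleotide exchange factor), LRP2 (an endocytic receptor) and ATP6V1B1 (a proton pump subunit) had ratios of -2.75 to -2.60, and none of these 6 genes overlapped. PAGE4 was moderately lower at 554 CPM, against 2132 CPM in CTB cells and 274 CPM in the other EVT cells. Proliferation genes as a list were close to CTB (median -0.34, 1 gene at least 2-fold higher, 2 at least 2-fold lower). The exception on the high side was CCNB1, with 964, 1290.2 and 1494 CPM in cluster 19 and 279, 356 and 490.5 CPM in CTB cells (1.78). CCNE1, the cyclin of the passage from G1 to S phase, listed with cell cycle exit and endocycle, had 692, 1099 and 1456 CPM in cluster 19 and 296, 435 and 588 CPM in CTB cells (1.31). In clusters 13 and 23 of E20 CCNE1 had 1269 and 133 CPM, the same order as CCNB1.

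Single cells showed how the members spread between these poles. The summed EVT list had a median of 1957 CPM per cell in cluster 19 (quartiles 1278 and 5476), against 10613 in cluster 13, 55347 in cluster 23 and 473 in CTB cells. 82 of 84 members exceeded the CTB median and none reached the median of cluster 23. The summed proliferation list had a median of 3899 CPM in cluster 19, against 3252 in cluster 13, 122 in cluster 23 and 3299 in CTB cells, and 80 of 84 members lay above every cell of cluster 23. The summed CTB list had medians of 2398 CPM in cluster 19, 1333 in cluster 13 and 5473 in CTB cells. Across the 84 members the EVT and CTB sums ran in opposite directions (Spearman coefficient -0.46), and the proliferation and EVT sums gave a coefficient near 0 (-0.030). These cells share libraries and both sums share a denominator, so the coefficients only describe them.

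**Figure D3:**
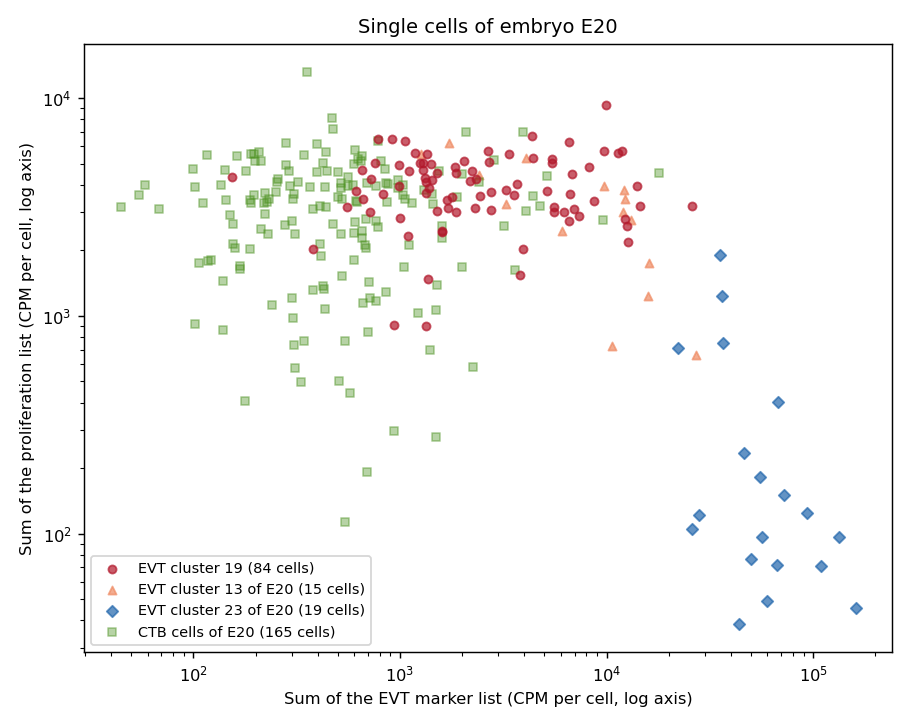
Each point is 1 cell of E20, with the summed EVT marker list on the x axis and the summed proliferation list on the y axis (CPM per cell, both log axes). Cluster 19 (red circles) lies at the height of CTB cells (green squares) and to their right, overlaps cluster 13 (orange triangles) and is separate from nearly all of cluster 23 (blue diamonds).

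Of the families of the 4 markers, DLX genes stood together on the high side. Of 6 DLX genes 4 were measured and all 4 were at least 2-fold higher in cluster 19 than in the other EVT cells. DLX3 had 82.3, 127 and 208 CPM in cluster 19 and 4.31, 15.2 and 29.2 CPM in the other EVT cells (2.58), DLX6 170.0 and 30.4 CPM (2.30), and DLX5 140.2 and 43.6 CPM (1.58). Of these the libraries of DLX5 overlapped. Against cluster 13 of E20 alone 2 of 4, DLX4 and DLX5, were at least 2-fold and none 4-fold higher (median 0.89). Against CTB cells DLX4 alone was 2-fold higher, and DLX5 had 209 CPM there. DLX1 and DLX2 had 0.0841 CPM and 0 in cluster 19.

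Of 16 listed lipid droplet proteins 15 could be matched by symbol. PLIN2, another perilipin, was not among these 15, so its level is not given. Of the 15, 5 were measured. CIDEC's relatives CIDEA and CIDEB and the perilipins PLIN1, PLIN4 and PLIN5 were at or near 0 in cluster 19 (at most 0.0561 CPM). PLIN3, a perilipin of most tissues, had 76.3 CPM in cluster 19, 73.7 CPM in the other EVT cells and 61.6 CPM in CTB cells. BSCL2 (seipin, which shapes new droplets) had 195 CPM in cluster 19, 87.8 CPM in the other EVT cells and 195 CPM in CTB cells, AUP1 256, 205 and 246 CPM, HSD17B11 21.3, 33.6 and 23.3 CPM, HILPDA 17.4, 7.59 and 13.7 CPM and FITM2 9.39, 7.66 and 3.81 CPM. G0S2 had 0.533 CPM, and FITM1 and HSD17B13 had 0. PPARG, the lipid regulator that trophoblast needs, was above both groups without overlap, at 290.0, 348 and 413 CPM in cluster 19, 13.6, 99.5 and 214 CPM in the other EVT cells and 161, 212 and 262 CPM in CTB cells. FADS2, a fatty acid desaturase, was likewise above both, at 63.6 CPM in cluster 19, 17.8 CPM in the other EVT cells and 10.9 CPM in CTB cells. Cluster 13 of E20 had 464 CPM of PPARG and 72.2 CPM of FADS2. The lists of triglyceride synthesis and lipolysis, sterol synthesis and fatty acid uptake had medians of 0.56, 0.58 and -0.22 over the other EVT cells, beside 0.31 for all genes.

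Of 9 measured cathepsins CTSE alone was at least 2-fold higher than in the other EVT cells as a whole, and 5 were at least 2-fold lower (median -1.14). Neither held against cluster 13 of E20, where CTSE was level, 1 of 9 was at least 2-fold higher in cluster 19 (CTSV, 28.9 CPM in cluster 19 and 0 in cluster 13), and 0 were 2-fold lower (median 0.23). CTSL, a lysosomal cysteine protease, had 1081, 1442 and 2197 CPM in cluster 19, 2560.1, 3593 and 6349 CPM in the other EVT cells and 421, 486 and 572 CPM in CTB cells, and the 3 ranges did not overlap. CTSB had 224 CPM in cluster 19, 959 CPM in the other EVT cells and 155 CPM in CTB cells. LGMN, CTSV and CTSH were lower than in the other EVT cells (-1.14, -1.52 and -1.14), as was CTSO under the filter (-2.03), CTSA, CTSC, CTSD, CTSK and CTSZ differed by -0.74 to 0.26, and CTSF, CTSG and CTSS were under 1 CPM. CST6, an inhibitor of cysteine proteases, had 43.6, 73.3 and 148 CPM in cluster 19, 0, 16.5 and 23.2 CPM in the other EVT cells and 0.448, 6.71 and 42.9 CPM in CTB cells. CST6 was no higher than in other embryos, with 79.4 CPM in cluster 19 and a mean of 103 CPM in EVT cells of the other embryos.

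The remaining lists were mixed. Of 11 genes of hypoxia and glycolysis 6 were at least 2-fold higher than in CTB cells and 1 at least 2-fold lower (median 1.22). Of all genes 6.9% were higher and 4.95% lower (median -0.13). Over the other EVT cells 2 of the 11 were at least 2-fold higher (median -0.13), beside 12.7% of all genes (median 0.31). Against cluster 13 of E20 1 of 11 was at least 2-fold higher and 0 lower (median 0.28). BNIP3, a mitochondrial protein induced by low oxygen, had 1386, 1605 and 1818 CPM in cluster 19, 291, 597 and 838 CPM in the other EVT cells and 620.0, 818 and 1082 CPM in CTB cells, above both without overlap. HLA-E, which natural killer cells recognise, had 365 CPM in cluster 19, 915 CPM in the other EVT cells and 151 CPM in CTB cells. FN1 (fibronectin) had 523, 2306 and 108 CPM in the same order of groups, and INSL4 (a placental relaxin relative, chosen after its values were seen) 1184, 2233 and 167 CPM. Sterol synthesis was 2-fold higher than in CTB cells for 1 of 10 genes and 2-fold lower for 2 (median -0.63), with INSIG1, the sensor that restrains it, at 215 CPM in cluster 19, 56.9 CPM in the other EVT cells and 437 CPM in CTB cells. GATA2, a trophoblast transcription factor, had 110.5, 27.04 and 221 CPM, and KLF6 1304, 474 and 987 CPM. Over other EVT and CTB cells the medians were 0.57 and 0.44 for ER chaperones, -0.025 and -0.34 for p53 targets and -0.24 and -0.25 for lysosome genes. Those of all genes were 0.31 and -0.13.

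**Figure D4:**
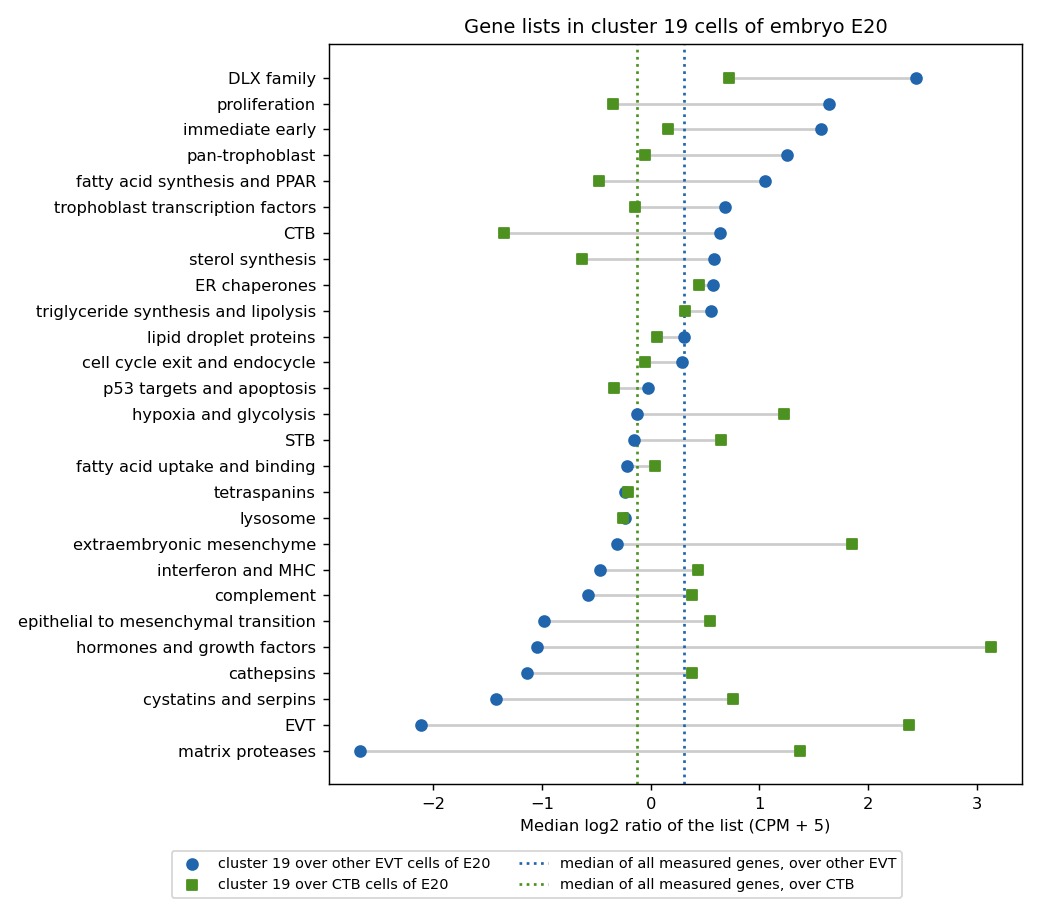
Median log2 ratio (CPM + 5) of each gene list with at least 4 measured genes, for cluster 19 over the other EVT cells (blue circles) and over CTB cells (green squares) of E20, with dotted lines at the medians of all measured genes. EVT markers and matrix proteases lie left of 0 against the other EVT cells and right of 0 against CTB cells, and proliferation genes lie at 1.64 and -0.34.

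Of the leukocyte list CORO1A was level with CD53 in cluster 19 (62.98 and 63.1 CPM). The other 11 genes were under 20 CPM there, and none was at 0. The 12 genes of the leukocyte list summed to 51.2 to 161 CPM per library in cluster 19, 185 to 527 CPM in the other EVT cells and 6.37 to 28.3 CPM in CTB cells. CORO1A, an actin regulator of blood cells, was the highest of them with 62.98 CPM, against 34.4 CPM in the other EVT cells and 0.509 CPM in CTB cells. It was higher still in EVT clusters 7 (105 CPM) and 13 (78.3 CPM) of E20. TYROBP had 7.49 CPM in cluster 19 and 241 CPM in the other EVT cells. The adipocyte list summed to 7.22 to 57.5 CPM in cluster 19, with ADIPOQ, PLIN1 and GPD1 at 0. Endoderm genes reached at most 18.1 CPM in cluster 19 with SOX17 and FOXA2 at 0, and epiblast genes at most 13.6 CPM. Syncytiotrophoblast (STB) genes summed to 2477 to 3250.1 CPM in cluster 19, 3384 to 4376 CPM in the other EVT cells and 1385 to 4897 CPM in CTB cells, against 39835 CPM in STB cells of E20. Amnion list genes summed to 539 to 2364 CPM in cluster 19, 1701 to 6083 CPM in the other EVT cells and 136 to 358 CPM in CTB cells. They summed to 2518 CPM in EVT cluster 13 and 8380 CPM in EXMC cells of E20. In cluster 19 nearly all came from IGFBP3, with VTCN1 and WNT6 at 0. Endothelium genes summed to 1038 to 1936 CPM in cluster 19, 1651 to 3551 CPM in the other EVT cells and 205 to 250.0 CPM in CTB cells, with PECAM1 the highest in cluster 19. The general trophoblast list summed to 4029 to 5318 CPM in cluster 19, against 399.7 CPM in EXMC cells.

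Mesenchyme RNA was uneven among the members. The 11 genes of the mesenchyme list summed to 152 to 8301 CPM per library in cluster 19, against 245 to 9918 CPM in the other EVT cells and 145 to 1296 CPM in CTB cells. The median member had 199 CPM, but 4 members in 3 libraries exceeded 5000 CPM and 1 of them, in library 39, reached 32870.2 CPM, near the median of EXMC cells (43717 CPM). That cell also held 78.5% of the KISS1, 80.9% of the POSTN and 75.7% of the COL3A1 counts of the cluster. Whether RNA of another cell entered that well was not tested. Cells rich in mesenchyme RNA were also found in other groups, where 8 of 165 CTB cells exceeded 5000 CPM. The highest sum of a cell was 12806 CPM in CTB cells, 17312 CPM in EVT cluster 23 and 1538 CPM in EVT cluster 13. Without the 4 members, 61 genes were at least 4-fold higher than in the other EVT cells and 224 lower, 119 were higher than in CTB cells and 43 lower, and the KISS1 ratio over the other EVT cells was -0.31.

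Among clusters of other embryos, EVT cluster 13 of E18 was most like cluster 19. Over 7388 genes the summed profile of cluster 19 had its highest Spearman correlation with CTB cluster 12 of E20 (coefficient 0.89, 164 genes at least 4-fold apart) and with EVT cluster 13 of E18 (coefficient 0.86, 204 genes), and EVT cluster 13 of E20 gave 0.83 with 473 genes, from a sum of 15 cells and 2297586 counts. Genes are not independent and the sums differ in depth, so these values only rank the clusters. Against cluster 13 of E20 6.2% of genes were at least 4-fold higher in cluster 19 and 1.91% lower, and against cluster 23 of E20 3.73% higher and 4.34% lower. Against cluster 13, 5 of 7 CTB markers and 5 of 12 proliferation genes were at least 2-fold higher in cluster 19, and 9 of 14 EVT markers at least 2-fold lower, beside 18.9% and 11.1% of all genes measured. CCNB1 had 1289 CPM in cluster 19 and ran from 639 to 1558 CPM in cluster 13 over 6 embryos, and PECAM1 had 1308 CPM in cluster 19 and ran from 1241 to 1856 CPM in cluster 13.

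Because the cluster belonged to 1 embryo, the genes named against other EVT cells or from the lists were also compared between E20 and the other embryos in cells that are not members. Sums of CTB cells of E20 were set against those of 7 other embryos with edgeR's quasi-likelihood test, and likewise for EXMC cells, a comparison chosen after seeing the data, with the single E20 embryo assumed to vary like the others. In CTB cells 4 of 12938 genes (0.0309%) rose in E20 and 180 (1.39%) fell at an adjusted p under 0.05. In EXMC cells 4 of 14967 genes (0.0267%) rose and 82 (0.548%) fell, and no gene was called there without E18, E21 or E24. Without E16-2 the EXMC counts were 15 and 130, without E22 they were 2 and 43, and without E23 they were 3 and 53. The higher count in CTB cells was 12 without E23, 7 without E16-2 and 2 without E18. None of the 115 such genes tested in CTB cells passed with edgeR (19 at an unadjusted p under 0.05, 4 with DESeq2: LEPR, PAGE4, FN1 and B2M), and none of 120 in EXMC cells (12 unadjusted, 3 with DESeq2: EPCAM, PAGE4 and LGMN). With 1 embryo against 7 the test has little power, so a gene that was not called may still differ. Of the 165 CTB cells of E20, 137 belonged to CTB cluster 12, which had 137 of its 138 cells from E20. In CTB cells a difference of embryo therefore cannot be told apart from a difference of CTB cluster.

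Of the 4 markers, CIDEC in CTB cells had 2.67 CPM in E20 and 0.549 ± 0.739 CPM in the other embryos (SD, n = 7; log2 1.84, SE 1.86, edgeR adjusted p = 0.781), and the highest other embryo had 1.94 CPM. CTSE in CTB cells had 7.51 CPM in E20 and 31.3 ± 39.98 CPM in the other embryos (SD, n = 7; log2 -2.42, SE 2.02, edgeR adjusted p = 0.724), with other embryos up to 104 CPM. DLX4 in CTB cells had 11.1 CPM in E20 and 6.06 ± 5.23 CPM in the other embryos (SD, n = 7; log2 0.54, SE 1.13, edgeR adjusted p = 0.919), and CD53 had at most 1.97 CPM in any embryo. In EXMC cells of E20 the 4 genes had 0.472, 4.05, 0.0674 and 0.135 CPM. MMP12 in CTB cells had 83.3 CPM in E20 and 9.30 ± 7.66 CPM in the other embryos (SD, n = 7; log2 2.80, SE 0.83, edgeR adjusted p = 0.173) and in EXMC cells 106 CPM in E20 against at most 29.95 CPM in the other embryos. In neither class did E20 reach the levels of cluster 19 for any of the 4 markers.

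A deposited table pairs cells with DNA libraries, a measure that the clustering did not use. Of the members 78 of 84 (92.9%, exact 95% interval 85.1 to 97.3) had one, against 52 of 80 other EVT cells (65.0%) and 59 of 165 CTB cells (35.8%). Over the 6 libraries the share was 57.2 ± 6.68 percentage points higher than in CTB cells (SD) and higher in 6 of 6 libraries, with an exact two-sided sign-flip p of 0.03125, the smallest that 6 libraries allow. Against the other EVT cells it was 27.6 ± 14.9 points higher, in 6 of 6 libraries, with the same exact p. Adjusted over both comparisons the p stayed 0.03125. Among cells with at least 30000 counts the second difference was 10.5 points, in 4 of 6 libraries (exact p = 0.1875). All 15 cells of cluster 13 and all 19 of cluster 23 in E20 were paired, and 18 of 42 in the shallow cluster 7. How cells were chosen for DNA libraries is not given in the sources used here.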

How the data were processed

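The deposited table holds raw counts per gene and cell for 21834 genes, and its annotation gives the class, cluster, embryo and total counts of each cell. Per the submitters' processing notes, the authors used cutadapt 1.15, STAR 2.6.0a and HTSeq 0.10.0. Not given in the sources used here: genome build, the meaning of a count (read or molecule), clustering settings beyond resolution, and doublet handling. Doublets were not called. Genes were matched by symbol (16240 carry one). Near-identical paralogs may share reads. Total counts ran from 4393315 to 30568931 per library, and from 19463202 to 30568931 in E20. Libraries 26 and 27, whose title and time label disagree, were left out of the groups (149 cells). The members carried 58 well names, 21 of them present in more than 1 library, and no library pair was identical.

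From these counts, sums over cells were scaled to CPM, and log2 ratios used a pseudocount of 5 CPM, a filter of 20 CPM in either group and a call at 4-fold. Embryos were to be weighted equally, but E20 is the only one with members, so trends over days could not be fitted and the pairing test used libraries in place of embryos. Named genes were the 15 largest and 10 smallest ratios over the other EVT cells and the 8 largest and 6 smallest over CTB, with a symbol and at least 50 CPM in either group, all members of the marker, lipid droplet, cathepsin and DLX lists, and the 3 largest absolute ratios over other EVT cells of each other list (at least 20 CPM; 34 lists, 376 of 404 genes in the table). The members and lists were chosen with earlier results of these data known. Thinned shares are the expected shares at 30000 counts per cell. Intervals are exact (Clopper-Pearson) and cover counting error only. Embryo contrasts used edgeR 4.0.16 (filterByExpr, TMM, quasi-likelihood F test, Benjamini-Hochberg) on sums of at least 5 cells, with DESeq2 1.42.0 as an alternative, in R 4.3.3, after a check on simulated counts. Other steps used Python 3.11.15 with SciPy 1.17.1. Alternatives were other pseudocounts, scalings and filters, and, chosen after seeing the data, other comparison cells, the embryo contrast with its settings, and leaving out libraries, embryos or members rich in mesenchyme RNA.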

Additional observations from a re-analysis of the deposited data

Results flagged for a closer look

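Of 100 named genes with at least 20 CPM in cluster 19, 14 had 1 library of E20 far from the other 5 by Dixon's test at the 95% level, where chance flags about 1 group in 20. Library 39, with 9 members, stood high for KISS1 (455 CPM), POSTN (673 CPM), CTSD (478 CPM), SERPINE2 (5717 CPM), PROCR (298 CPM) and TSPAN13 (97.00 CPM). In library 39, 1 member with the highest mesenchyme sum held the largest part of the KISS1, POSTN and CTSD counts (78.5%, 80.9% and 30.9% of those in the cluster), and the member with the highest EVT sum held 66.3% of SERPINE2 and 50.5% of PROCR. Library 34 stood high for FST (83.4 CPM), MDM2 (136 CPM) and PAGE4 (1176 CPM), library 36 for MYL3 (407 CPM), library 37 for GADD45G (77.01 CPM) and library 38 for DLX6 (243 CPM). Library 38 stood low for ATF3 (44.2 CPM) and library 35 for NPC2 (356 CPM).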

How the results depend on the processing

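The counts of genes at least 4-fold apart moved with the pseudocount and the scaling. Over the other EVT cells 128 genes were higher with a pseudocount of 1 CPM, 8 with 20 CPM (lower 94), 36 with TMM scaling and 113 with a mean over cells, against 62 higher and 195 lower. Cluster 13 of E20 in place of all other EVT cells gave 395 higher and 122 lower, and cluster 23 gave 235 higher. Leaving out 1 library of E20 gave 57 to 147 higher and 172 to 237 lower over the other EVT cells, and 112 to 134 higher and 34 to 45 lower over CTB cells. Over CTB cells 69 genes were lower with 1 CPM, 7 with 20 CPM (higher 58) and 152 with CTB cells of the other embryos, against 121 higher and 40 lower. Pooling over embryos, all libraries and at least 10 cells could not change these counts, because all members come from 1 embryo. Leaving out the filter kept each of these counts within 1.5 times. Of the named ratios, 2226 values over other EVT cells and 208 over CTB cells moved by less than the spread between libraries, and 153 and 16 by more. The first 2 tallies include the settings that could not change a ratio. The sign of the ratio over other EVT cells turned with cluster 13 of E20 alone for CCNB1 -0.00046, CTSB 0.31, GDF15 0.79, LEP 1.04, LEPR 0.49, PLA2G7 1.16, PROCR 1.00, SERPINE2 0.049, SLC22A4 0.079 and TEK 0.77, with the other embryos for CST6 -0.35, DEFB1 -3.40 and PROCR 0.84, with a mean over cells for BUB1B -1.24 and without the 4 members rich in mesenchyme RNA for KISS1 -0.31. For the E20 contrast, leaving out 1 other embryo gave 2 to 12 higher and 132 to 196 lower in CTB and 0 to 15 higher and 0 to 130 lower in EXMC cells. DESeq2's Wald test gave 10 and 619 in CTB and 88 and 817 in EXMC cells, and no filter gave 9 higher in EXMC cells. Libraries as units, which counts libraries of 1 embryo as independent, gave 884 and 1308 in CTB and 1333 and 1713 in EXMC cells. The pairing difference was 54.9 to 58.3 points over CTB and 24.5 to 32.1 over other EVT cells without 1 library, where 5 libraries cannot give an exact p under 0.0625, and 10.5 points over other EVT cells with at least 30000 counts. The cause of these changes was not tested.

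Not run were the slopes over days and leaving out an embryo from the level comparisons, since all members come from 1 embryo. No paired analysis was possible because the level ratios come from no test and the E20 embryo has no numbered partner among the other embryos. The shares of cells with a DNA library were compared within the libraries of E20. With 1 embryo, nothing here separates a cell state from the embryo, its day or its libraries. The 15 cells of cluster 13 and the mixture behind the other EVT cells limit the comparisons within E20. The embryo contrast rests on 1 embryo against 7.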
